A study of Mus musculus with 23 samples.

Results

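The comparison described here follows the left ventricle of Efnb1 knockout mice from postnatal day 20 (P20) to postnatal day 60 (P60). It rests on 12 of the 23 arrays of the series, chosen by their titles alone, with 6 arrays labelled Efnb1cKO_P20 and 6 labelled Efnb1cKO_P60. The series title places the knockout (Efnb1cKO) in cardiomyocytes, so the other cells of the ventricle still carry the gene. All mice were male, of a mixed S129/S4 × C57BL/6 background, untreated, fed chow and kept in a 12h light and 12h dark cycle, and each array measured a different mouse. The 11 wild-type (WT) arrays, 6 at P20 and 5 at P60 from the same background, served to show where the knockout differed. They also entered the filter on dim probes and the shared estimate of the spread. The labels name neither the Cre line nor the deleted part of the gene nor the hour at which hearts were taken, and they give no further allele for either genotype.

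From weaning to adulthood the mouse ventricle grows mainly by enlargement of cardiomyocytes that have largely left the cell cycle. In the weeks after birth the neonatal isoforms of contractile proteins are replaced, matrix deposition slows, and imprinted fetal growth genes are silenced. Ephrin-B1, the product of Efnb1, is a transmembrane ligand of Eph receptor tyrosine kinases and lies at the lateral membrane of the adult cardiomyocyte. Arrays read the ventricle as a whole, so a transcript can change because each cell holds more of it or because more cells hold it, and these cannot be told apart here.

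Levels are log2 intensities of a one-colour Agilent array, scaled to a common 75th percentile, and each gene is read through its brightest tested probe. Levels of different probes are not comparable with each other. A difference is P60 minus P20, so that 1 means a doubling, and is given with its standard error (SE) from limma. A gene is said to have risen or fallen where limma's adjusted p was below 0.05. The probe sequences below (mm9, 5′ to 3′, lower case, as in the scanner files) are given because the reading of their genes depends on which stretch was measured. Efnb1 had a single tested probe, at chrX:96343505-96343564 on the plus strand. The brightest Bdh1 probe, at chr16:31457378-31457437 on the plus strand, showed the largest rise of any named gene. The Myh7 probes, at chr14:55589581-55589640 and chr14:55600186-55600245 on the minus strand, gave different results. The files do not say in which exon a probe lies.
Efnb1 A_51_P388478: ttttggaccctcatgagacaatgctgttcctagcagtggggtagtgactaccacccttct
Bdh1 A_51_P163106: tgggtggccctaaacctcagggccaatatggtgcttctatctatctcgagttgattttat
Myh7 A_55_P2093232: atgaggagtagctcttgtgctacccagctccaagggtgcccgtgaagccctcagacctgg
Myh7 A_65_P07389: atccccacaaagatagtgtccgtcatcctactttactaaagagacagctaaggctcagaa

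All 12 ventricular markers were well above background on all 12 knockout arrays, among them the ventricular light chain gene Myl2 (17.89 at P20) and the ventricular transcription factor gene Irx4 (10.82). Transcripts of atrial myocardium were present too and uneven, with list means of 9.70 to 11.94 at P20. Between 60.8% and 64.2% of the probes of a knockout array were well above background, and its 75th percentile lay between 435.4 and 608.9 intensity units. Arrays of the same age were correlated across probes at r = 0.9913 to 0.9961 (P20) and 0.9917 to 0.9956 (P60), and arrays of different age at 0.984 to 0.9892. Each of the 3 slides held 2 knockout arrays of each age. Among the P20 knockouts, replicate 6 stood apart in clock, cell cycle and matrix genes, and replicate 1 in atrial, epicardial and fat cell markers. Among the P60 knockouts, replicates 5 and 6 stood apart in the clock genes Arntl and Dbp, with Dbp at the level of most P20 arrays. Where a named gene's call turned on these arrays, this is said beside it, as it is for the larger shifts in list counts.

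Efnb1 mRNA was measured in every knockout ventricle and was lower at the later age. At P20 the knockouts lay between 11.37 and 11.80 with a median of 11.55, and at P60 between 10.79 and 10.94 with a median of 10.90. The ages did not overlap. The mean fell by 0.68 (SE 0.111, limma's adjusted p = 5.84e-05), from 11.57 ± 0.15 to 10.89 ± 0.05 (SD, n = 6 each). The exact two-sided permutation test over the 924 splits of the 12 arrays gave p = 0.00216, the smallest that such groups allow. In WT the means were 11.91 at P20 and 11.37 at P60, a difference of -0.54, and the difference between the genotypes' age effects did not pass (-0.13, adjusted p = 1). Since the deleted part of Efnb1 is not given, the probe may lie outside it and does not check the genotype labels.

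**Figure D1:**
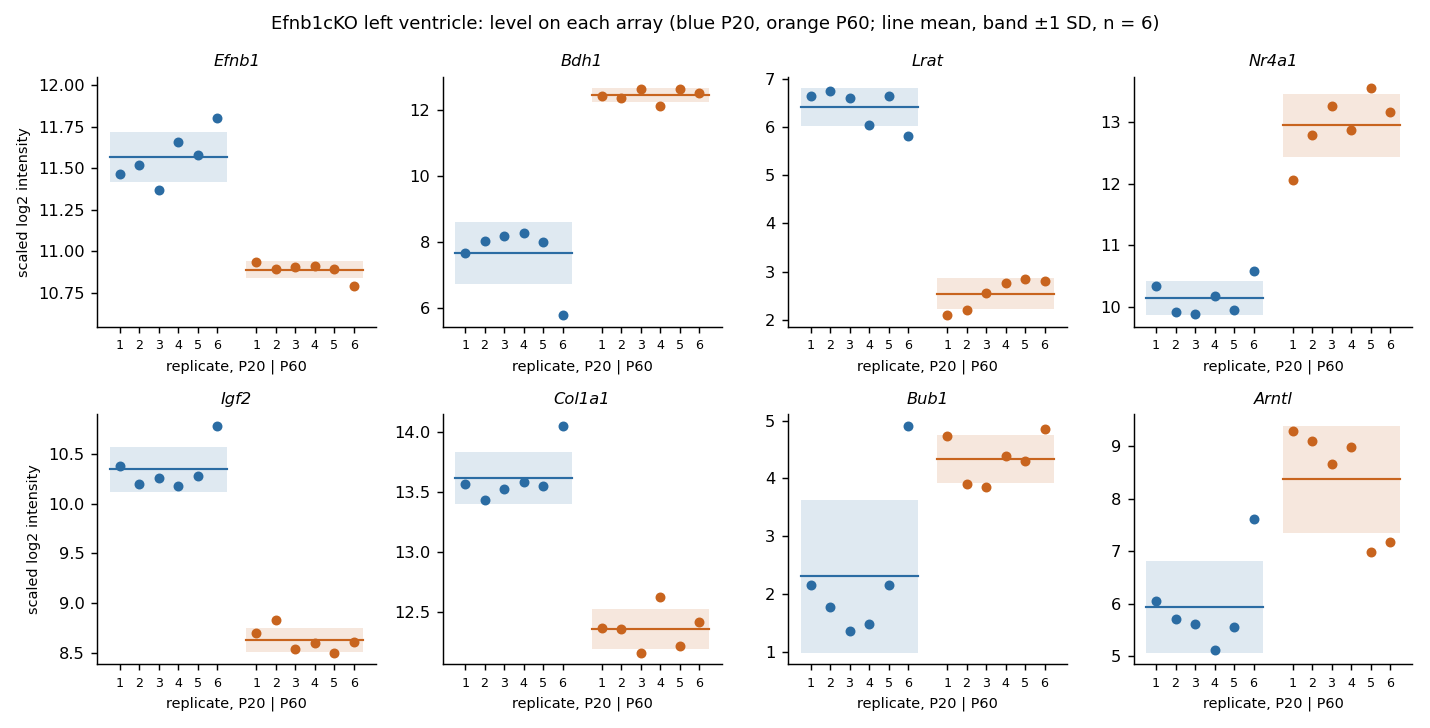
Level of 8 genes on each of the 12 knockout arrays (vertical axes, scaled log2 intensity; horizontal axes, replicate number within P20 in blue and P60 in orange), with the mean as a line and ±1 SD as a band (n = 6). Bdh1, Nr4a1, Lrat, Igf2 and Col1a1 separate the ages completely, while replicate 6 of P20 reaches 4.91 for Bub1, above the P60 mean of 4.34.

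Of 35719 probes tested, 14216 (39.8%) differed between the ages in the knockout, 7099 higher and 7117 lower at P60 (19.9% each). Of the called probes 49.9% were higher, against 57.2% when arrays were scaled to the median and 56.0% with normexp background correction. Read with 1 probe per name, 40.1% of 23133 names changed, 21.2% upward and 18.9% downward, and for 21.6% the 6 arrays of each age did not overlap. These shares are the background against which every list below is set. Most changes were small: the median size among the called probes was 0.35, and 470 probes rose and 488 fell by more than 2-fold. Of 143 genes that the naming rule picked and that passed, 42 differed by over 1.5 times less with normexp and 30 of 141 with the authors' values, none with the opposite sign. Of the 62 with more than 1 tested probe, all other probes passed in the same direction for 40. They did not for Acta2, Aqp4, Col26a1, Col3a1, Cspg4, Dmd, Esrrb, Hsd17b7, Lox, Lpl, Myh7, Neb, Pdk1, Per2, Pfkfb2, Plagl1, Prc1, Rab44, Ryr2, Slc16a7, Slc2a4 and Sox17, whose values hold for the probe given. Of the called probes 98.2% had the same sign on all 3 slides taken one by one.

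The largest rise was that of Bdh1. Bdh1, the mitochondrial enzyme that interconverts the ketone bodies acetoacetate and beta-hydroxybutyrate, lay between 5.78 and 8.29 (median 8.02) at P20 and between 12.12 and 12.66 (median 12.49) at P60. The rise of 4.81 (SE 0.468, limma's adjusted p = 8.15e-08) is 28.0-fold, and a second Bdh1 probe rose by 4.91. The lowest P20 value belonged to replicate 6 and the other P20 arrays lay at or above 7.67, so that the ages stayed far apart with or without that array.

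The interferon-inducible gene Ifi205 rose from 7.20 ± 0.48 to 10.22 ± 0.30 (difference 3.01, SE 0.195), the water channel gene Aqp8 from 6.38 ± 0.25 to 9.23 ± 0.22 (2.85, SE 0.154), and Hal, which encodes the histidine-degrading enzyme histidase, from 5.13 ± 0.31 to 7.92 ± 0.26 (2.80, SE 0.147). Nr4a1, an immediate-early nuclear receptor gene, went from between 9.88 and 10.59 at P20 to between 12.07 and 13.55 at P60 and rose 7.03-fold (2.81, SE 0.253). Tchhl1, a trichohyalin-like gene, rose by 3.03 and Fabp7, a fatty acid binding protein gene, by 2.66, with 2 and 1 of the 6 P20 arrays not well above background, and by 1.13 and 1.15 with normexp. Vgll2, a cofactor of TEAD transcription factors known from skeletal muscle, and Gsdma, a gasdermin gene, were too dim at P20 to count as well above background in any of the 6 mice. Their levels at P60 were at least 4.59-fold and at least 2.32-fold higher. For these bounds the P60 mean was set against a P20 mean in which each array entered at its own value or, if that was lower, at the dimmest signal counted as well above background. They hold for the main scaling: with normexp and its offset of 50 the log2 differences of Vgll2 and Gsdma were 0.54 and 0.42, and with the authors' values 0.87 and 0.62, all passing. Predicted genes with code names were left out of the rule. The other genes among the 12 largest rises it allows, Defa-rs2, Defa2 and Defa3, encode alpha-defensins and are described with the genotype difference.

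Lrat, which esterifies retinol for storage, lay between 5.81 and 6.74 (median 6.61) on the P20 knockout arrays. At P60 it was well above background on none of the 6 arrays and was at least 12.3-fold lower (limma's adjusted p = 7.15e-09). Cyp11a1, the enzyme that starts steroid synthesis by cleaving the cholesterol side chain, and Rab44, a large Rab GTPase gene, were likewise dim at P60, by at least 7.33-fold and at least 5.70-fold. These bounds hold for the main scaling. With normexp and its offset of 50 the log2 differences of Lrat, Cyp11a1 and Rab44 were -1.10, -0.73 and -0.60, and with the authors' values -1.55, -1.15 and -0.99, all passing.

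Col26a1, a collagen gene, fell from 8.69 ± 0.23 to 5.98 ± 0.22 (difference -2.71, SE 0.136). Aqp4, a water channel gene, fell from 8.78 ± 0.14 to 6.33 ± 0.15 (-2.45, SE 0.0955, limma's adjusted p = 3.85e-13), and of its other probes 1 also fell and 1 differed by 0.13 without passing (adjusted p = 0.507). The extracellular enzymes Cpz (a carboxypeptidase) and Adamts17 (a metalloprotease) fell by 2.47 and 2.23. With normexp they differed by -1.62 and -1.03, and with the authors' values by -1.91 and -1.36. Tnni2, the troponin I gene of fast skeletal muscle, fell by 2.01, from 12.00 ± 0.27 to 9.98 ± 0.24. The other falls named by the rule were AU015791 at -2.32, Fam84a at -2.22, Igfbpl1 at -1.89 and Wdr72 at -1.84. With normexp these were -0.80, -0.91, -1.12 and -0.42, and on the P60 arrays AU015791 and Wdr72 were well above background on 4 of 6 and Fam84a on 5. The ranges of the ages did not overlap for any of the 12 largest rises or the 12 largest falls, which the rule required.

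**Figure D2:**
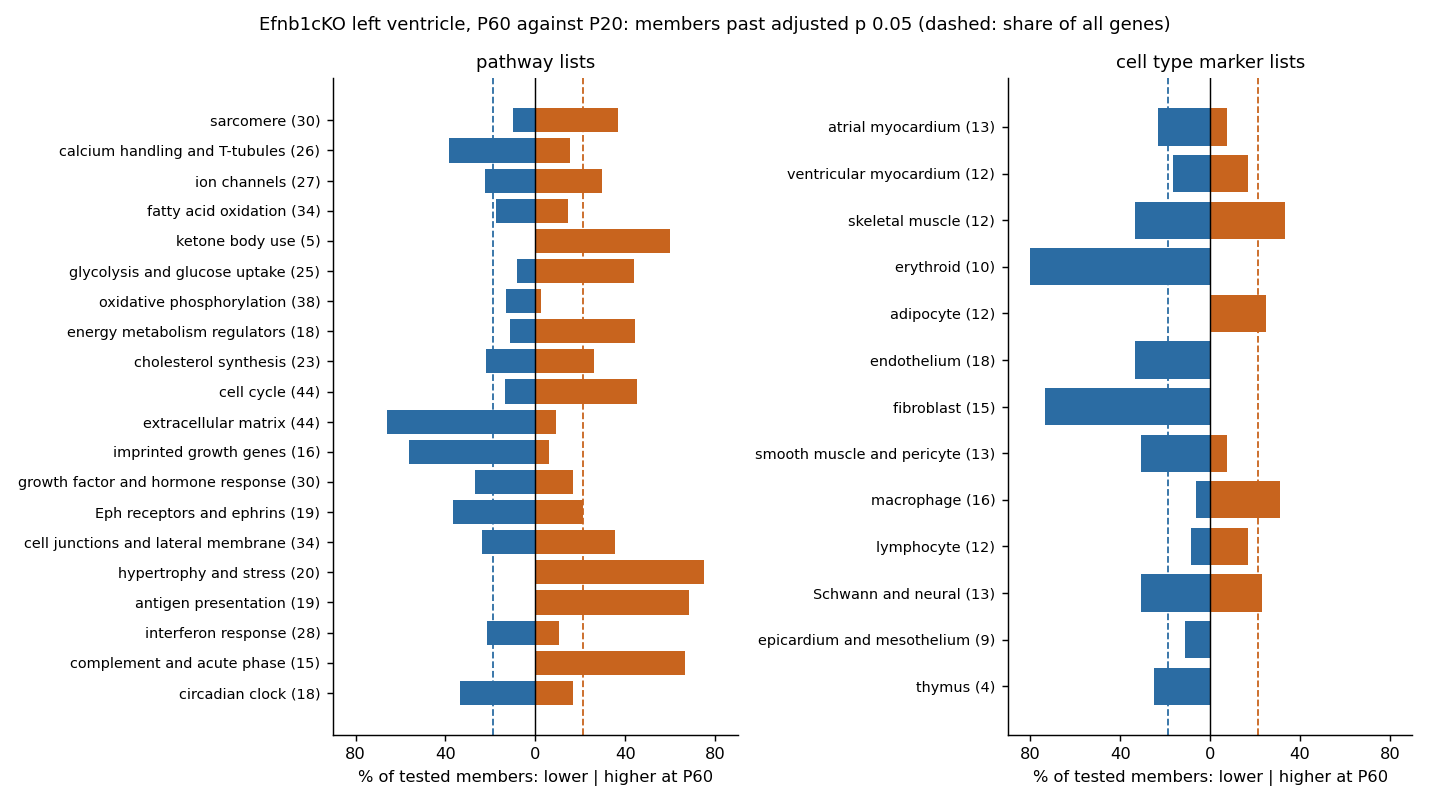
Share of the tested members of each gene list that rose (orange, right) or fell (blue, left) from P20 to P60 in the knockout (horizontal axis, percent of tested members; number tested in brackets; left panel pathway lists, right panel cell type markers). Dashed lines mark the shares over all genes, 21.2% higher and 18.9% lower; matrix, imprinted, erythroid and fibroblast lists lie far beyond the lower line, and stress, antigen presentation and complement lists beyond the upper one.

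Contractile genes rose more often than they fell. Of 30 tested sarcomere genes 11 rose (36.7%, against 21.2% of all genes) and 3 fell, with a median difference of 0.08 against 0.02 for all genes. The skeletal alpha-actin gene Acta1 rose from 13.80 ± 0.34 to 14.66 ± 0.13 (difference 0.86, SE 0.195), and the nebulin gene Neb by 0.77, a call lost without P20 replicate 6 and P60 replicates 5 and 6. Tnni1, the slow skeletal troponin I gene that the fetal heart uses, fell from 8.04 ± 0.21 to 7.31 ± 0.18 (-0.73, SE 0.102) with no overlap, while its adult counterpart Tnni3 differed by 0.08 (SE 0.054, limma's adjusted p = 0.259). The alpha myosin gene Myh6 differed by 0.05 (SE 0.065, limma's adjusted p = 0.613) with its brighter probe, while its other probe, A_55_P2140453, fell by 0.25 (SE 0.0576). Under quantile normalisation Myh6 and Tnni3 also passed.

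Myh7, which encodes the slow beta myosin heavy chain, depended on the probe. With probe A_55_P2093232 the knockout lay between 14.72 and 15.07 at P20 and between 15.76 and 16.17 at P60, a rise of 1.11 (SE 0.0997, limma's adjusted p = 2.67e-08). With probe A_65_P07389 the mean level was 9.63 ± 0.25 at P20 and 9.75 ± 0.16 at P60, and the difference of 0.12 (SE 0.113, adjusted p = 0.445) did not pass. The rise of Myh7 therefore holds for one of its tested probes, and what the 2 sequences shown above measure was not tested.

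Among genes of calcium handling and the T-tubules, the membrane invaginations that carry the action potential inward, falls were more frequent than rises. Of 26 tested members 10 fell (38.5%, against 18.9% of all genes) and 4 rose, with a median of -0.06. Casq1, the calsequestrin of skeletal muscle, fell by 1.12 (SE 0.129), Cav3, the muscle caveolin, by 0.41 (SE 0.0654), and the ryanodine receptor gene Ryr2 by 0.23 (SE 0.0527). Amph, which encodes the membrane-bending protein amphiphysin, fell from 6.56 ± 0.21 to 6.12 ± 0.10 (SE 0.0876 on the difference of -0.44). S100a1, a calcium sensor that acts on the ryanodine receptor, rose by 0.54 (SE 0.0596). The probes of Ryr2 disagreed in direction, 2 falling and 1 rising.

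Of 27 tested ion channel genes 8 rose (29.6%) and 6 fell (22.2%), near the shares of all genes. Scn4b, a sodium channel beta subunit, lay between 6.61 and 7.37 at P20 and between 8.86 and 9.92 at P60, a 5.07-fold rise (difference 2.34, SE 0.188). Kcne1, the accessory subunit of the slow delayed rectifier, fell from 12.75 ± 0.22 to 11.03 ± 0.36 (-1.73, SE 0.169), and the T-type calcium channel gene Cacna1g by 0.84 (SE 0.066) with all 3 of its probes falling. No range of these genes overlapped between the ages.

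Genes of glucose handling rose more often than they fell. Of 25 glycolysis and glucose uptake genes 11 rose (44.0%, against 21.2%) and 2 fell. They included the glucose transporter genes Slc2a1 (difference 0.60, SE 0.122) and Slc2a4 (0.31, SE 0.0755), the bifunctional regulator Pfkfb2 (0.61, SE 0.106), the pyruvate dehydrogenase kinase Pdk1 (0.42, SE 0.0521, with 2 of 5 probes passing) and Pgam1 (0.41, SE 0.0938). Of 34 fatty acid oxidation genes 5 rose and 6 fell, a share near the background in both directions. The uncoupling protein genes Ucp2 and Ucp3 fell by 0.77 and 0.69. Lpl, the lipase that frees fatty acids from circulating triglycerides, rose by 0.47 (SE 0.0689).

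Of 5 genes of ketone body use, Bdh1 and the monocarboxylate transporter genes Slc16a7 (0.49, SE 0.1) and Slc16a1 (0.28, SE 0.0595) rose. Of 38 oxidative phosphorylation genes 32 did not pass, 5 fell and 1 rose, below the background in both directions. The ubiquitous isoform gene Cox6a1 fell by 0.35 (SE 0.0467) and Cox8a by 0.20 (SE 0.0469), whereas the heart isoform genes Cox7a1 (0.13, adjusted p = 0.152) and Cox8b (0.13, adjusted p = 0.081) and the liver isoform gene Cox7a2 (-0.03, adjusted p = 0.706) did not pass limma's threshold. Cox8b passed in 8 of 28 alternatives (single slides not counted), Cox7a1 in 3 and Cox7a2 in 1. Quantile normalisation raised the count of falls in this list to 13 and that of rises to 5. Of 18 regulators of energy metabolism 8 rose (44.4%) and 2 fell (none fell without P20 replicate 6). Besides Nr4a1 these were led by Klf15 (0.61, SE 0.0995), Ppara, the receptor that drives fatty acid oxidation genes (0.53, SE 0.0891), and the estrogen-related receptor gene Esrrb (0.51, SE 0.0625). Of 23 cholesterol synthesis genes 6 rose (4 without P20 replicate 1 or 6) and 5 fell, near the shares of all genes, with Fdft1 at 0.40, Cyp51 at 0.35, Insig1 at 0.34 and Hsd17b7 at -0.29. Insig1 lost its call in 13 of 28 alternatives (single slides not counted), among them leaving out any one of P20 replicates 1, 3, 5 and 6 and P60 replicates 2, 5 and 6.

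Most matrix genes fell. Of 44 tested members 29 fell (65.9%, against 18.9% of all genes) and 4 rose, with a median of -0.55, and the ages did not overlap for 27 members. Col1a1, a chain of the main fibrillar collagen, lay between 13.43 and 14.05 (median 13.56) at P20 and between 12.16 and 12.63 (median 12.36) at P60, and fell by 1.26 (SE 0.122, limma's adjusted p = 7.86e-08). The elastin gene Eln fell by 1.48 (SE 0.25), the fibrillar collagen gene Col5a1 by 1.42 (SE 0.114), and Fbn2, a fibrillin of developing tissue, by 1.32 (SE 0.245). Replicate 6 held the highest P20 value of Col1a1, Eln and Col5a1, and without it the count of falls was 26. Ctgf, a matricellular growth factor gene, went the other way, from 12.24 ± 0.17 to 13.86 ± 0.31 (1.62, SE 0.122).

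Fibroblast markers, some of which are also matrix genes, fell in 11 of 15 (73.3%) with none rising, among them Col3a1 by 1.22 and Col1a2 by 0.71. Lox, the collagen cross-linking enzyme in both lists, fell by 0.71, a call lost when P20 replicates 1 and 6, or P20 replicate 6 with P60 replicates 5 and 6, were left out together. Endothelial markers fell in 6 of 18, by 0.39 each for Tie1, Tek and Egfl7, and none rose. Acta2, smooth muscle actin, fell from 15.63 ± 0.18 to 14.28 ± 0.24 (-1.35, SE 0.106). Another of its 4 probes also fell, and the other two did not pass. The pericyte receptor gene Pdgfrb fell by 0.43, while 4 of 13 smooth muscle and pericyte markers fell in all.

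Imprinted growth genes, expressed from one parental copy and high in the fetus, fell in 9 of 16 tested (56.2%) and rose in 1, with a median of -0.66. Igf2, the fetal growth factor, lay between 10.17 and 10.78 at P20 and between 8.50 and 8.83 at P60 (difference -1.72, SE 0.128). H19, the noncoding RNA of the same locus, fell by 1.47 (SE 0.171), Peg3 by 1.71 (SE 0.145), and Plagl1, a zinc finger gene, from 11.73 ± 0.06 to 10.43 ± 0.08 (-1.30, SE 0.0464, limma's adjusted p = 1.33e-13), a fall that its second probe did not show (-0.08, adjusted p = 0.237). The cell cycle inhibitor Cdkn1c, which is also in this list, fell by 0.65 (SE 0.053). The rise was of Igf2r, the receptor that clears Igf2, at 0.13 (adjusted p = 0.041), and no member rose without P20 replicate 1 or under median scaling, normexp or quantile normalisation.

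**Figure D3:**
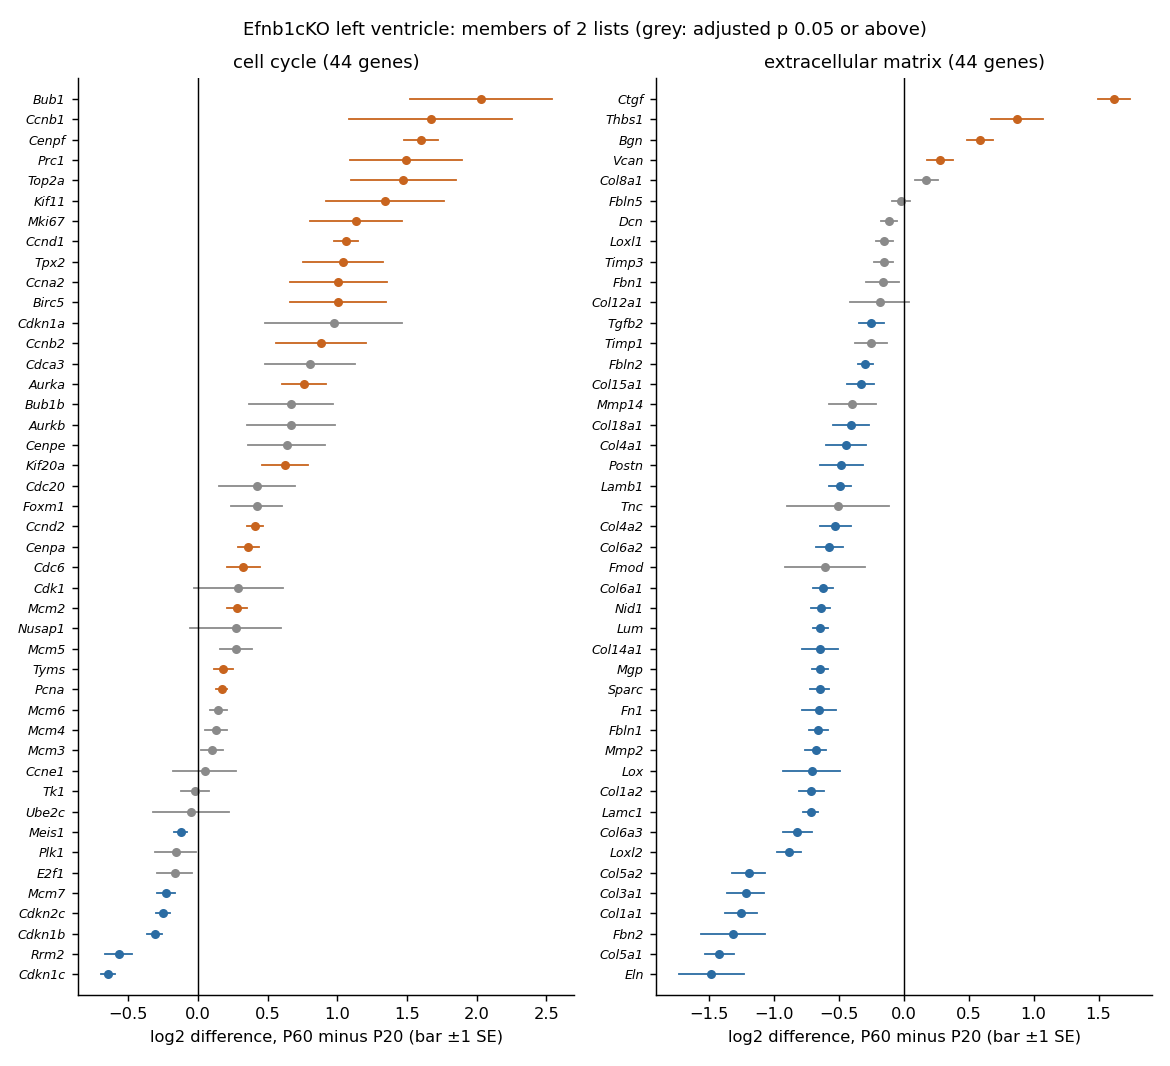
Difference between P60 and P20 in the knockout for every tested member of the cell cycle list and the extracellular matrix list (horizontal axes, log2; dot the limma estimate, bar ±1 SE; orange rose, blue fell, grey did not pass adjusted p 0.05). Of 44 cell cycle genes 20 lie to the right as risers, with wide bars for Bub1, Ccnb1 and Prc1 and a narrow one for Cenpf, and of 44 matrix genes 29 lie to the left as falls.

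Of 44 tested cell cycle genes 20 rose (45.5%, against 21.2% of all genes), 6 fell and 18 did not pass, with a median of 0.38. Cenpf, a kinetochore protein, had a median of 8.25 at P20 and 9.78 at P60, with no overlap, and rose 3.03-fold (1.60, SE 0.122, limma's adjusted p = 2.99e-09). Cyclin B1 (Ccnb1) rose by 1.67 (SE 0.585), the spindle checkpoint kinase Bub1 by 2.03 (SE 0.51) and the midzone protein Prc1 by 1.49 (SE 0.402), and for these the ages overlapped. The P20 knockout arrays other than replicate 6 read between 1.37 and 2.16 for Bub1, while replicate 6 read 4.91, above every P60 array (3.85 to 4.85). For Ccnb1 replicate 6 read 6.24, and the highest P60 array 5.82. Bub1 was well above background on 1 P20 array and Ccnb1 on 2, so that the sizes of their rises are not measured.

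The mean over the list was 7.17 to 7.27 on the other P20 arrays, 8.18 on replicate 6 and 7.65 or more, but below replicate 6, at P60. Without replicate 6 the count was 28 risers, and without replicate 1 it was 15. With the difference between Arntl and Dbp of each array as a covariate it was 11, and Bub1 then differed by 1.19 (limma's adjusted p = 0.0675) and Ccnb1 by 0.55 (adjusted p = 0.435). With normexp background correction Bub1 differed by 0.27 (adjusted p = 0.0277) and Ccnb1 by 0.40 (adjusted p = 0.1). Ccnb1 also lost its call without P20 replicate 1, 2 or 3 or P60 replicate 1, and Prc1 with the covariate. In WT 9 members rose and 5 fell, where 20.5% of all genes rose and 17.5% fell. For no member of the list did the difference between the genotypes' age effects pass. WT P20 replicates 5 and 6 read 4.66 and 4.57 for Bub1, above the WT arrays at P60 (3.78 to 4.43).

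The promoters of the 4 cell cycle genes named above (250 bases before to 50 after the start, from RefSeq on GRCm38.p6) are shown because letters known from mitotic promoters recur in them. Capitals mark matches on either strand to TTTGAA (the cell cycle genes homology region), CCAAT (the CCAAT box) and the E2F motifs TTCCCGCC and TTGGCGC. Bub1 lies at chr2:127831810-127832109 (minus strand), Ccnb1 at chr13:100786437-100786736 (minus), Cenpf at chr1:189688037-189688336 (minus) and Prc1 at chr7:80294201-80294500 (plus).
Bub1: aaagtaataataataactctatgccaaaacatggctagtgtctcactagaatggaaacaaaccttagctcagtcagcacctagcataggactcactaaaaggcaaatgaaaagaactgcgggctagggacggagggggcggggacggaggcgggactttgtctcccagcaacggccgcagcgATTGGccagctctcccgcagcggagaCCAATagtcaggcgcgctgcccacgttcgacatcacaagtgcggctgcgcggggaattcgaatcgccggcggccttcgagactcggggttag
Ccnb1: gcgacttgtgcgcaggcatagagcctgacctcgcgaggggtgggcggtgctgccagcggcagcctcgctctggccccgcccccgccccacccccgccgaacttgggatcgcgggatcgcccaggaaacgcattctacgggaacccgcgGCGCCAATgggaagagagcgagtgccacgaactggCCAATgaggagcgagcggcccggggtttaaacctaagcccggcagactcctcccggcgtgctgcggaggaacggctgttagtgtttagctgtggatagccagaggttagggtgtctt
Cenpf: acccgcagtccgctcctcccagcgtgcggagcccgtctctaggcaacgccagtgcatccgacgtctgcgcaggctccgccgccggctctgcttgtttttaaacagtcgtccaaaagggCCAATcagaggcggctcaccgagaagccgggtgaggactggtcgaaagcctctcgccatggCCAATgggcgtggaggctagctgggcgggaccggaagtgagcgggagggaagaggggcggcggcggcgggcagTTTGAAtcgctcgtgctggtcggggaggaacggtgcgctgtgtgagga
Prc1: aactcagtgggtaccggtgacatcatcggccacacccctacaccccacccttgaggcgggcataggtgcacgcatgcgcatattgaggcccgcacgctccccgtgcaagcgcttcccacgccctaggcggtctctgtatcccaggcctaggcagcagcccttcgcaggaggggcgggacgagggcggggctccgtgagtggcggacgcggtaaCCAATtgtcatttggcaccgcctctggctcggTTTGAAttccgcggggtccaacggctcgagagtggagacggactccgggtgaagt

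All 4 of these windows held CCAAT, Bub1, Ccnb1 and Cenpf in 2 places each. TTTGAA lay across or near the start in Cenpf and Prc1, and in Ccnb1 an E2F match overlapped one of the CCAAT boxes. Over the 39 promoters of the 35 list genes in the table, CCAAT occurred in 74.4%, TTTGAA in 41.0%, TTGGCGC in 17.9% and TTCCCGCC in 2.6%. Over all 32851 promoters of that length the shares were 37.4%, 17.9%, 2.5% and 2.2%. A match describes letters and not a bound site.

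Genes of growth factor and hormone response fell in 8 and rose in 5 of 30, near the background. The thyroid hormone-responsive corepressor Hr fell by 0.74 (SE 0.0828) and the beta-adrenergic receptor gene Adrb1 by 0.57 (SE 0.115), while the alpha-adrenergic receptor gene Adra1a rose by 0.70 (SE 0.0971). Among Eph receptors and ephrins, the family to which the targeted gene belongs, 7 of 19 tested fell (36.8%) and 4 rose (21.1%). The median was -0.02, and of the falls only Efnb1 and Efnb2 are named here. Among the ligands Efnb2 fell from 10.68 ± 0.12 to 10.04 ± 0.12 (-0.64, SE 0.0764), close in size to Efnb1, and Efnb3 rose by 0.44 (SE 0.103). Among the receptors Epha4 rose from 9.34 ± 0.34 to 10.40 ± 0.19 (1.06, SE 0.128) and Ephb1 from 9.33 ± 0.40 to 10.23 ± 0.14 (0.90, SE 0.222). Replicate 6 of P20 held the lowest Ephb1 value, 8.54 against 9.29 or more on the other P20 arrays, and the lowest P60 array read 10.11.

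Junction and lateral membrane genes rose in 12 (35.3%) and fell in 8 (23.5%) of 34, with a median of 0.01. The dystrophin gene Dmd, which links the cytoskeleton to the lateral membrane, lay between 10.82 and 11.07 at P20 and between 10.15 and 10.35 at P60, and fell by 0.70 (SE 0.0509, limma's adjusted p = 1.64e-09), with 7 of its 8 probes falling. The laminin gene Lama2 fell by 0.62 (SE 0.0563) and the syntrophin gene Sntb1 by 0.78 (SE 0.149). Sntb1 was dim, with 5 of 6 P60 arrays well above background, and its ages overlapped. With normexp it differed by -0.18 and with the authors' values by -0.28. The catenin gene Ctnna3 of the intercalated disc fell by 0.62 (SE 0.0661), while Xirp2, an actin-binding protein of the same structure, rose by 0.69 (SE 0.1) and the gap junction gene Gja1 by 0.39 (SE 0.0803). None of the other probes of Ctnna3 and Gja1 passed.

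Stress and hypertrophy genes rose in 15 of 20 tested (against 21.2% of all genes) and none fell, with a median of 0.97. Nppb, the B-type natriuretic peptide gene, lay between 12.97 and 13.72 at P20 and between 15.29 and 15.87 at P60, a 5.08-fold rise (2.34, SE 0.234, limma's adjusted p = 1.15e-07). Gdf15, a stress-induced cytokine gene, rose 6.14-fold (2.62, SE 0.152), and the stress transcription factor gene Atf3 by 2.32 (SE 0.249). The A-type peptide gene Nppa, abundant in atria, differed by 0.48 (SE 0.282, adjusted p = 0.184). The list includes Myh7, read through the probe that rose. In WT 13 members rose and none fell.

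Antigen presentation genes rose in 13 of 19 (68.4%) and none fell, with a median of 0.68. The class II genes led: H2-Eb1 went from between 10.21 and 11.58 to between 12.42 and 13.02 (1.97, SE 0.205), H2-Ab1 rose by 1.80 (SE 0.226), the invariant chain gene Cd74 by 1.74 (SE 0.222) and H2-Aa by 1.68 (SE 0.278). Their ages did not overlap. Beside them 5 of 16 macrophage markers rose (2 without P20 replicate 6) and 1 fell, with Cd163 at 0.50 and Cx3cr1, a chemokine receptor of resident macrophages, at -0.86 (SE 0.113). Among 12 lymphocyte markers the cytotoxic granule gene Gzma rose by 1.76 and Nkg7 by 0.75, and the B cell gene Cd79b fell by 0.51. With normexp these differences were 0.54, 0.19 and -0.33, and with the authors' values 0.81, 0.26 and -0.38. Nkg7 lost its call when P20 replicate 6 and P60 replicates 5 and 6 were left out together. Of 28 interferon response genes 3 rose and 6 fell, with Ifi205 and Ifi204 (0.83) up and Rsad2, the antiviral viperin, from 9.91 ± 0.43 down to 8.92 ± 0.20 (SE 0.205 on the difference). Without P20 replicate 1 the list had 6 rises and 3 falls, and with scaling to the median 7 and 4.

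Complement and acute phase genes rose in 10 of 15 (66.7%) and none fell, with a median of 0.28. C3, the central complement component, lay between 9.85 and 12.64 at P20 and between 13.19 and 13.51 at P60 (2.10, SE 0.357). Haptoglobin (Hp) rose by 1.88 (SE 0.469), factor B (Cfb) by 1.01 (SE 0.213) and Cfd, which fat cells secrete, by 2.66 (SE 0.754). Of 12 fat cell markers 3 rose (25.0%, near the 21.2% of all genes), namely Cfd, which both lists hold, Cidec (1.75) and Thrsp (0.79). The call of Cidec was lost without any one of P20 replicates 2, 5 and 6 and P60 replicates 3, 4 and 6. The list's mean level was 6.87 to 8.78 over the P20 arrays and 8.24 to 8.83 at P60. The defining marker Adipoq read 2.30 to 6.78 at P20 and 5.79 to 6.52 at P60 (1.42, SE 0.638, limma's adjusted p = 0.0835). Without replicate 1 of P20, which had the highest levels of that age, 6 fat cell markers rose. The part of fat in the complement result was not tested.

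**Figure D4:**
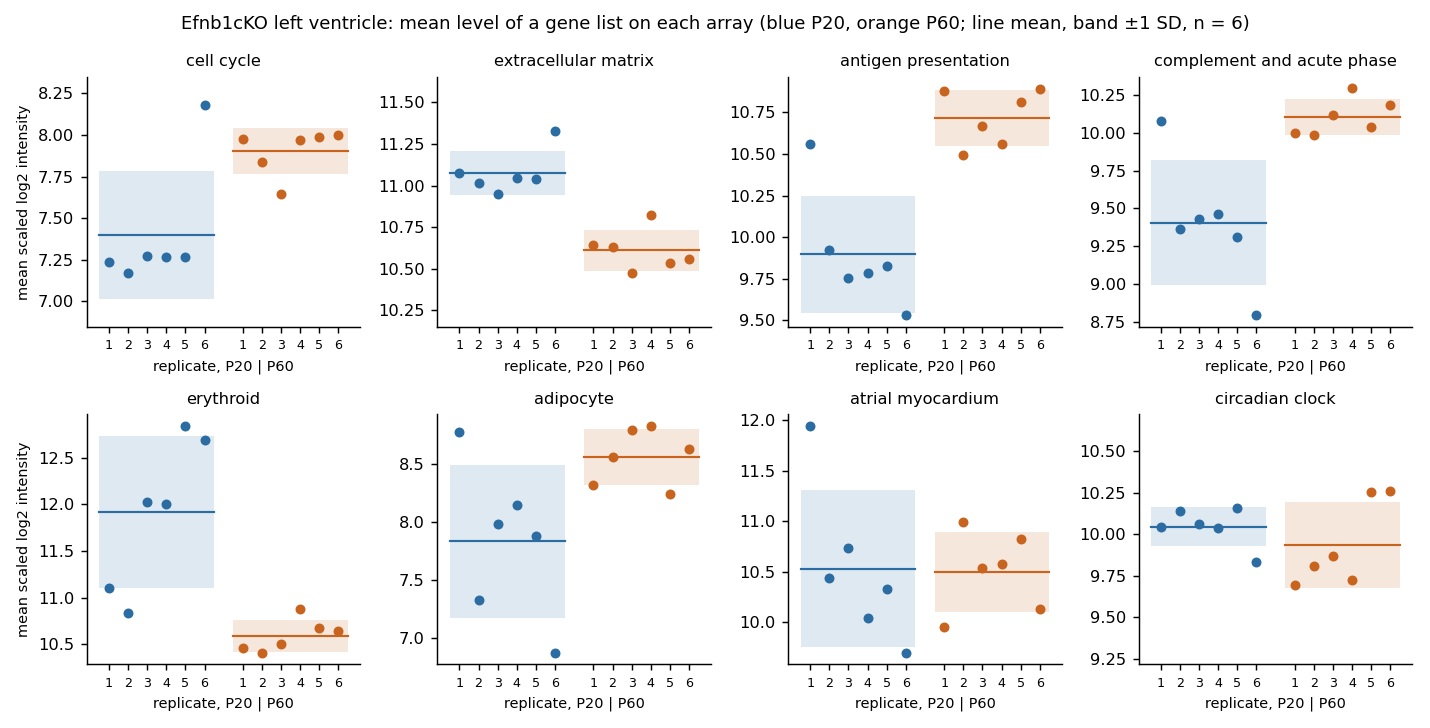
Mean level of 8 gene lists on each of the 12 knockout arrays (vertical axes, mean scaled log2 intensity; horizontal axes, replicate number within P20 in blue and P60 in orange), with the group mean as a line and ±1 SD as a band (n = 6). Replicate 6 of P20 lies at 8.18 for cell cycle genes, above all P60 arrays; replicate 1 of P20 lies highest for atrial genes at 11.94; matrix and erythroid means fall from P20 to P60.

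Red cell genes were lower at P60 in 8 of 10 tested members (80.0%), and none was higher. Ahsp, which stabilises alpha globin, lay between 3.71 and 8.82 at P20 and between 2.68 and 3.90 at P60 (limma's adjusted p = 0.0034), with 1 of 6 P60 arrays well above background, so that the size of the fall is not measured, and Alas2, the first enzyme of red cell heme synthesis, fell from 12.23 ± 0.76 to 10.76 ± 0.21 (-1.47, SE 0.282). Slc4a1, the anion exchanger of the red cell membrane, fell by 2.24. P20 replicates 5 and 6 held the highest list means (12.84 and 12.69), replicates 1 and 2 the lowest of that age (11.10 and 10.83), and P60 arrays read 10.41 to 10.87. In WT 3 members fell, and the difference between the genotypes' age effects passed for no member. Atrial markers were uneven within each age: 1 of 13 rose and 3 fell (3 and 3 without P20 replicate 1), and Myl7, the atrial light chain, read 10.31 to 15.93 at P20 and 10.83 to 14.03 at P60 (-0.42, SE 1.05, limma's adjusted p = 0.783).

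In the other marker lists calls were few or went both ways, where 21.2% of all genes rose and 18.9% fell. Of 12 ventricular markers Nppb and Mybpc3 (0.18) rose and Hey2 (-0.36) and Ryr2 fell. Mybpc3 lost its call without any one of P20 replicates 1, 3 and 6 and P60 replicates 3 and 4. Of 12 skeletal muscle markers 4 rose, Acta1 among them, and 4 fell, with Mybpc1 at -1.12 beside Tnni2 and Casq1. With normexp Mybpc1 differed by -0.32 and with the authors' values by -0.49. Schwann cell and nerve markers rose in 3 of 13, led by S100b (0.79), and fell in 4. Sox10 (-0.57) led the falls, which included Cdh19 (-0.46) and Gap43 (-0.45). The call of Gap43 was lost with the authors' values and when P20 replicates 1 and 6 were left out together. In the epicardial list, with a median of -0.41, Tbx18 fell by 0.41 as the single call of 9 (2 falls without P20 replicate 6, and 1 rise beside it without replicate 1), and in the thymus list Cd1d1 by 0.24 as the single call of 4, lost without P20 replicate 3 or 6 or P60 replicate 2.

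Clock genes differed between the ages and between arrays of one age. Arntl, the positive arm of the clock, lay between 5.11 and 7.62 (median 5.66) at P20 and between 6.98 and 9.30 (median 8.83) at P60, and rose by 2.43 (SE 0.555, limma's adjusted p = 0.00145). Its target Dbp differed by -0.95 (adjusted p = 0.244). Replicate 6 of P20 read 7.62 for Arntl and 12.52 for Dbp, where the other P20 arrays read at most 6.05 and at least 14.44. Replicates 5 and 6 of P60 read 6.98 and 7.17 for Arntl and 14.83 and 14.66 for Dbp, where the other P60 arrays read at least 8.67 and at most 13.06. Of 18 clock genes 3 rose and 6 fell, with Per3 at -1.41 (SE 0.326), Hlf at -1.23 (SE 0.194) and Per2 at -0.99 (SE 0.278) down and Per1 up by 0.51. Per1 lost its call in 13 of 28 alternatives (single slides not counted), among them quantile normalisation, the authors' values and leaving out any one of P20 replicates 1 to 5 or P60 replicates 5 and 6. P20 replicate 6 and P60 replicates 5 and 6 were also left out together, chosen after their clock gene levels were seen. Then 3 rose and 9 fell, and Dbp passed at -1.99. Because the choice used Arntl and Dbp, this gives no separate reading of these genes. Dbp also passed with array weights. The hour of sampling is not given, so age and time of day cannot be told apart for these genes.

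The same ages were then compared in WT. Its group means share no array with those of the knockout, but both comparisons share the filter and the estimate of the spread. There 13085 probes (36.6%) passed, 6615 higher and 6470 lower, a split that scaling to the median moved from 50.6% to 61.7% higher. Of the names called in the knockout 77.0% were called in WT too, and of those called in WT 81.3% were called in the knockout. Among the 7139 shared names 7133 changed in the same direction. The age effects themselves differed between genotypes for 14 probes (0.0392% of those tested), 10 with a larger (0.028%) and 4 with a smaller (0.0112%) value in the knockout. The count was 5 with the filter on all 12 knockout arrays, 9 with normexp and 23 with array weights. At an unadjusted p below 0.05 there were 1339.

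The larger values included probes for alpha-defensin genes, antimicrobial peptides known from intestinal Paneth cells. Among them, 2 genes, Defa-rs10 and Defa-rs7, gave a signal well above background in every knockout and WT mouse. Defa-rs7 rose by 1.64 in the knockout and differed by 0.21 in WT, a difference of 1.42 (limma's adjusted p = 0.000437). Defa-rs10 rose by 1.17 in the knockout, against 0.07 in WT (adjusted p of the difference = 0.000157), and was picked after its values were seen. Defa-rs2 read 2.36 to 4.34 in the P20 knockouts, where 5 of 6 arrays were well above background, and 6.54 to 6.88 in the P60 knockouts, a rise of 3.18 (SE 0.279). No WT array was well above background for Defa-rs2, so its fitted genotype difference of 3.79 (adjusted p = 6.64e-05) is set against WT values with only an upper bound. The differences of Defa2 (2.31), Defa-rs4 (2.21) and Defa1 with its dimmest probe, A_55_P1999110 (2.43), passed, while the brightest Defa1 probe, A_55_P2068510, did not (2.06, adjusted p = 0.141). The difference of Defa3 (3.27, adjusted p = 0.091) did not pass either, with 1 WT array above background for Defa3 and none for the other three; Defa-rs12 (1.87, passing) had 1. Of the 11 tested defensin probes 8 were well above background on fewer than 5 arrays outside the P60 knockouts, and so were tested because they were high there; no count over the probes is read as a result. Within the knockout Defa2 and Defa1 were dim in all P20 arrays and were at least 4.27-fold and at least 3.36-fold higher at P60, while normexp gave 0.55 and 0.43 on the log2 scale. The sequence of a defensin probe was between 40% (Defa-rs2) and 90% (Defa-rs10 and Defa-rs12) identical to its closest other defensin probe. Alpha-defensins are a multigene family, so the names of the more alike probes are uncertain.

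In the other direction Myh7 (probe A_55_P2093232) rose by 1.11 in the knockout and by 2.62 in WT, a difference of -1.50 (SE 0.144, limma's adjusted p = 1.62e-05). It started from 14.87 in the P20 knockout and from between 10.67 and 11.18 in WT, and the second probe gave -0.15 (SE 0.163, adjusted p = 1). Amph fell in the knockout and read 6.79 to 6.99 in WT at P20 and 7.06 to 7.45 at P60, a difference of -0.79 (SE 0.127, adjusted p = 0.0107). One more named gene passed beyond the number the rule allows and was picked after its values were seen. Phlda3, a p53-induced repressor of Akt signalling, rose by 0.31 in the knockout and fell by 0.28 in WT (difference 0.58). The probes of the predicted genes Gm15292 and Gm7849 passed too, with rises of 2.79 and 2.78 against changes of -0.04 and -0.12 in WT. Dmd, which fell by 0.70 in the knockout and by 0.30 in WT, came near the threshold without passing it (-0.40, adjusted p = 0.0571).

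**Figure D5:**
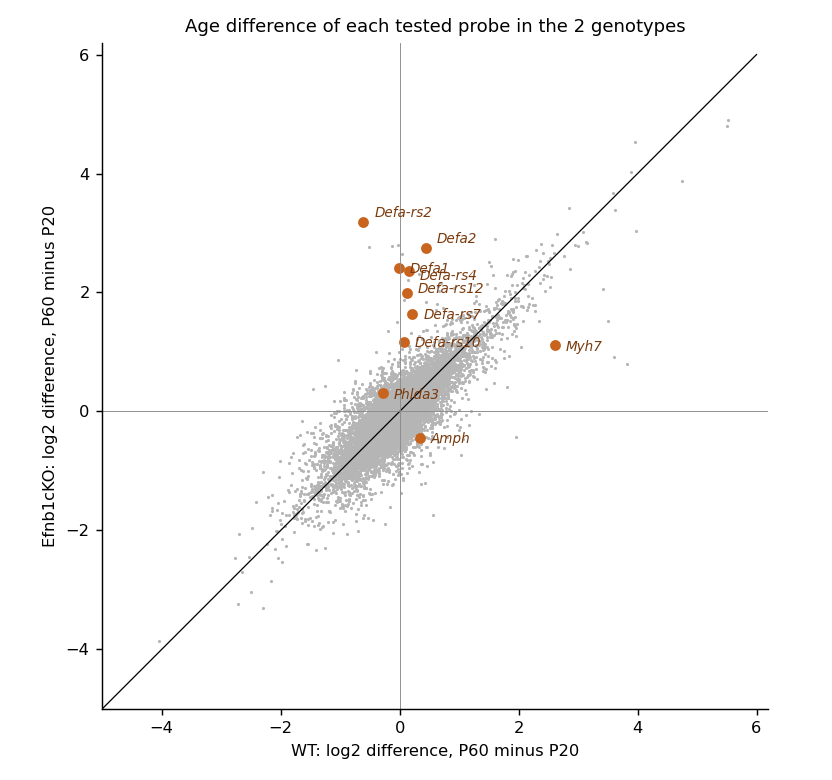
Difference between P60 and P20 of each tested probe in WT (horizontal axis) and in the knockout (vertical axis), both log2, with the line of equal values; orange marks the named genes whose age effects differed between genotypes at adjusted p below 0.05. Most probes lie along the line, defensin probes lie above it near a WT difference of 0, and Myh7 and Amph lie below it.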

How the data were processed

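Each array measured total RNA from the left ventricle of 1 mouse. Per the file headers, Feature Extraction 10.10.1.1 quantified a single green channel, and the deposited intensity values are background-subtracted and detrended processed signals with probe coordinates on mm9. The authors' deposited log2 table (34366 of the tested probes, column medians 7.87, normalisation not stated) was used as an alternative; the submitters' processing notes name limma without a version. Here each array's intensity was divided by its 75th percentile and log2-transformed, with the same offset for every array. Control spots and outlier flags were dropped and repeated spots of a probe became their mean. From 56605 probes, the 35719 well above background on at least 5 of 23 arrays entered a single limma fit (3.58.1, R 4.3.3) of 4 group means (19 residual degrees of freedom), two-sided, with Benjamini-Hochberg adjustment over all tested probes and a threshold of 0.05. On simulated data for the knockout age effect (35719 probes, 200 changed), 60% of changes of 0.5, 96% of changes of 1 and 100% of larger ones (log2) were recovered. Far fewer probes changed there than passed in the real data (39.8%), and the adjustment depends on that share. The simulated recovery therefore does not measure that of the real comparison. The number of arrays limits the precision.

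A gene is its brightest tested probe. The 33 lists (20 pathways, 13 sets of cell type markers; 633 of 670 genes tested) and the naming rule were chosen with earlier results of these data known and have no test of their own. Named are Efnb1, the 12 largest rises and 12 largest falls with ranges that do not overlap and all 6 arrays of at least 1 age well above background, up to 6 genes each way for the genotype difference, up to 4 called members per list, and isoform pairs; further list members were named after their values were seen. For some genes that the rule names, values are not given here. Gene names are the array's; 14841 of 15404 matched RefSeq. Promoters were to be shown only for lists that moved in 1 direction; the cell cycle list moved in both and is shown all the same. The alternatives covered background correction, scaling, filters on dim probes, slide and replicate blocks, single slides, only the knockout arrays, variance trend, array weights, 1 probe per gene, the authors' values, covariates for clock and atrial genes, and leaving out arrays. Same-numbered knockout arrays of the 2 ages did not deviate together, so replicate numbers were not treated as pairs.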

Additional observations from a re-analysis of the deposited data

Results flagged for a closer look

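In groups of 6 arrays, an array was singled out where its gap to the nearest other array, divided by the group's whole range, passed Dixon's 95% critical value. Of 364 groups tested, 37 (10.16%) did so, where chance gives about 1 in 20, and 25 of these were P20 replicate 6. The ratios for that array were 0.752 for Bdh1, 0.689 for Cav3, 0.65 for Ucp2, 0.731 for Fdft1, 0.626 for Hsd17b7, 0.776 for Bub1, 0.664 for Ccnb1, 0.86 for Prc1, 0.763 for Eln, 0.71 for Col5a1, 0.659 for Igf2, 0.711 for Ephb1, 0.676 for Per3, 0.649 for Clu, 0.729 for Tie1, 0.759 for Col1a1, 0.853 for Col3a1, 0.83 for Lox, 0.737 for Slc2a4 and 0.797 for Dbp. Among list means they were 0.673 for ketone body use, 0.727 for cholesterol synthesis, 0.901 for the cell cycle, 0.657 for the matrix and 0.673 for endothelium. WT P20 replicates 5 and 6 had similar levels to it in Arntl (7.75 and 8.07), Bub1 (4.66 and 4.57) and Bdh1 (5.44 and 4.79).

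The other P20 arrays so marked were replicate 1, high for Cfb (0.731) and the epicardial list mean (0.793), replicate 2, high for the calcium handling list mean (0.664), and replicate 3, high for Pdk1 (0.678). At P60 they were replicate 1, low for the epicardial list mean (0.684), replicate 2, low for S100b (0.634) and the interferon list mean (0.657), replicate 4, high for Col5a1 (0.676), the growth factor list mean (0.637) and the fibroblast list mean (0.758), replicate 5, low for Cyp51 (0.693), and replicate 6, low for Efnb1 (0.699).

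The age effect differed between the genotypes (knockout minus WT, log2, limma's adjusted p below 0.05) for Defa-rs2 (3.79), Defa1 (2.43, by 1 of its 3 tested probes and not the brightest), Defa2 (2.31), Defa-rs4 (2.21), Defa-rs12 (1.87), Defa-rs7 (1.42), Defa-rs10 (1.105), Phlda3 (0.58), Amph (-0.79) and Myh7 (-1.50, by 1 of its 2 tested probes). Of the defensin probes, WT arrays were well above background throughout for Defa-rs7 and Defa-rs10 and on at most 1 array for the others, so that the sizes of those other differences are not measured. Defa1, Defa2, Defa-rs4 and Defa-rs12 were tested only because they were high in the P60 knockouts, which fixes the direction of their difference.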

How the results depend on the processing

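The count of probes that differed with age in the knockout stayed within 1.5 times of 14216 under every alternative on all 3 slides that kept all probes, with 12912 to 14024 when single arrays were left out and 12668 or 12451 when P20 replicates 1 and 6, or P20 replicate 6 with P60 replicates 5 and 6, were left out together (both chosen after seeing the data). With 1 probe per gene, so fewer tests, it was 9351. On slides 1, 2 and 3 alone, with 2 arrays per age, it was 661, 235 and 0, and on slide 3 limma gave 7522 probes at an unadjusted p below 0.05. Efnb1 differed by -0.64, -0.70 and -0.68 on those slides (adjusted p = 0.0685, 0.0702 and 0.162) and by -0.71 to -0.63 with single arrays left out. The 14 probes that differed between genotypes became 9 with normexp, 5 with the filter on all 12 knockout arrays and 23 with array weights (13 to 17 with single arrays left out); the cause was not tested beyond the smaller number of probes the filter leaves. Dbp was at 0.84 with the clock covariate, which contains Dbp itself and so gives no reading of its age difference, and Insig1 changed sign on slide 1 alone, at -0.10. Replicate numbers of the 2 ages showed correlations of -0.06 to 0.24 between same-numbered arrays, 1 of 6 above 0.1; the replicate block gave 14824 probes for age in the knockout, 13957 in WT and 14 for the difference, and Efnb1 at -0.68. Scaling to the median shifted the median of all probes to 0.04 against 0.01. List counts that moved by over 1.5 times, given as rises and falls, included fatty acid oxidation (4 and 10 with the clock covariate), cholesterol synthesis (8 and 2 with median scaling), growth factors (2 and 10 with quantile normalisation), interferon response (8 and 2 with the clock covariate), endothelium (0 and 11 with the clock covariate) and ventricular markers (6 and 3 with quantile normalisation). Dim probes, such as Bub1 and Ccnb1 at P20, carry the widest errors.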
